A study of Caenorhabditis elegans with 22 samples.

Results

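The comparison described here sets 1 poly(A) RNA library of wild-type Caenorhabditis elegans fed bacteria for nrde-3 RNAi against 1 library of wild type fed bacteria for control RNAi, 2 of the 22 samples of the series. Both libraries came from whole animals of strain N2, young adults with embryos, and their age is given as 70 h from L1 arrest. Larvae were grown for 71 h at the same temperature on HT115 bacteria making double-stranded RNA against nrde-3, or carrying the L4440 vector for the control. The series as a whole holds 8 total RNA, 6 mRNA and 8 small RNA libraries from wild type and mutants of the editing enzymes ADR-1 and ADR-2 and of the helicase gene eri-6. There was 1 library per side, so every difference below is a difference between those libraries, without a replicate check and without a test.

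NRDE-3 is an Argonaute protein that binds secondary small interfering RNAs in the cytoplasm of somatic cells and carries them into the nucleus. There it acts with NRDE-1, NRDE-2 and NRDE-4 on nascent transcripts, lowers transcription elongation and directs methylation of histone H3. Its endogenous guides come largely from loci of the ERGO-1 pathway, in which the ERI complex and the Argonaute ERGO-1 make primary small RNAs and RNA-dependent RNA polymerases make the secondary ones. The helicase ERI-6/7 is needed for the ERGO-1 class. The comparison asks which transcripts are held down through NRDE-3 in otherwise normal animals.

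Other measurements were placed beside the pair. The first was a pair of mRNA libraries, on nrde-3 and control RNAi, of strain GR1744, a triple mutant for both editing enzymes and the helicase with the alleles gv6 of adr-1, gv42 of adr-2 and mg379 of eri-6, which shares no library with the wild-type pair. Another was the wild-type library on drh-1 RNAi, against the dsRNA sensor gene drh-1, which has the same control library, so its values stand only side by side. They come from a table scaled separately, in which the control library was at a median of 0.922 of its values here. The last was small RNA and ribosome-depleted total RNA of wild type and eri-6(mg379), strain GR1814, with 2 libraries per genotype, of which 1 wild-type small RNA library came from strain GR1831 with the transgene mgIs30. The mRNA values are FPKM, fragments per kilobase of transcript scaled for library size, as the authors deposited them. The table gives no fragment counts, so the depth of the libraries is unknown.

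The target itself did not separate the libraries. The nrde-3 gene (WBGene00019862, X:372235-376973, build WBcel235) was at 5.76 FPKM on control RNAi, 4.43 on drh-1 RNAi and 5.26 on nrde-3 RNAi in wild type, a log2 fold of −0.11 for nrde-3 over control. In the triple mutant it was at 15.4 FPKM on control and 8.08 on nrde-3 RNAi, a log2 fold of −0.85. Reads from the dsRNA fed to the animals can map to the gene, and their part in these values was not tested. The wild-type value therefore gives no check of the label, and the library is called below the library labelled nrde-3 RNAi, or for short the nrde-3 RNAi library.

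Folds were taken as log2 of FPKM plus 1 in the nrde-3 RNAi library over FPKM plus 1 in the control. Of 28472 loci of 200 bp or more with 1 entry per gene, 11776 had at least 1 FPKM in one of the 2 libraries and were compared. Their median log2 fold was −0.06, with quartiles of −0.27 and 0.17. At least 4-fold higher were 127 loci (1.08% of those compared) and at least 4-fold lower were 108 (0.917%). At least 2-fold higher were 329 loci (2.79%) and 2-fold lower 238 (2.02%). Most loci lay near the line of equal level, and agreement was closer the more abundant the transcript. Among loci whose own annotated length is 200 or more, 94.9% of those with a mean of 1 to 5 FPKM were within 2-fold, and 99.4% of those with 100 FPKM or more.

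The extremes were mostly short noncoding RNAs and not messenger RNAs. The locus in the table is a merged span, so a short RNA inside a longer gene passes the 200 bp limit, and the gene's own length had to be read from the RefSeq annotation of the same build, which gave one for 99.6% of the loci compared. Of the 20 highest loci, 17 have an own length under 200 bases, 18 were listed at 0 in the control, and 14 were listed at 0 in both triple mutant nrde-3 and control libraries. Of the 20 lowest, 18 are that short and 19 were listed at 0 on nrde-3 RNAi. The highest of all, the noncoding RNA F13G11.144, was at 1362 FPKM on nrde-3 RNAi and listed at 0 on control, and in the triple mutant it was at 0 in both. The lowest, the snoRNA K12D12.8, was at 993 FPKM on control and listed at 0 on nrde-3 RNAi. Over the 304 short loci 53.0% were past 4-fold in one direction or the other, against 0.622% of the 11423 loci with an own length of 200 or more. By own length, the counts past 4-fold were 35 higher (0.306%) and 36 lower (0.315%), and the counts past 2-fold were 210 higher (1.84%) and 149 lower (1.3%).

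**Figure D1:**
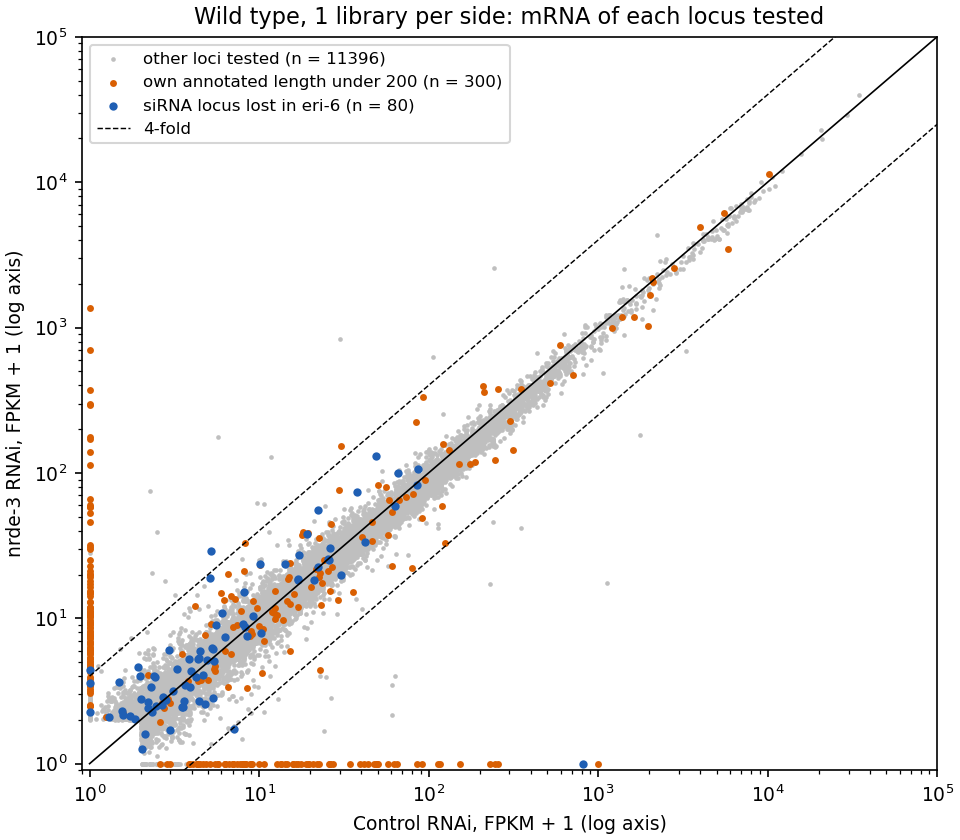
FPKM plus 1 of each locus compared, on log axes, in the control library (horizontal) and the nrde-3 RNAi library (vertical) of wild type, with dashed lines at 4-fold. The short loci (orange) line both axes, where one library lists 0, while most loci that lose small RNA in eri-6 (blue) lie near or above the line of equal level.

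Coding genes found in both libraries and past 4-fold often shared their locus with such an RNA. Of the 10171 coding genes with at least 1 FPKM in both libraries, 20 were past 4-fold, 10 in each direction, and 11 of them have an annotated short noncoding gene inside the locus, against 1790 (17.6%) of all 10171. Past 2-fold the share was close to that of all, at 23 of 113 (20.4%). C18H9.3 was at 29.1 FPKM on control, 838 on nrde-3 RNAi and 1240 on drh-1 RNAi. The helicase gene laf-1 was at 1762 FPKM on control, 694 on drh-1 RNAi and 180 on nrde-3 RNAi, and in the triple mutant at 54.8 and 44.1 on control and nrde-3 RNAi. The coactivator gene cbp-1 was at 9.75 FPKM on control and 59.9 on nrde-3 RNAi, with 21.9 and 21.2 in the triple mutant. Reads of a nested RNA and of its host cannot be told apart here.

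Loci that lose small RNA in eri-6 were described next. They were defined without the mRNA, as genes whose small RNA in every eri-6 library was at least 4-fold below every wild-type library, with a wild-type mean of at least 10 normalised reads. The rule held for 168 genes, of which 132 had 1 entry of 200 bp or more in the mRNA table, 31 of these were listed at 0 in both wild-type libraries of the pair, and 80 passed the limit of 1 FPKM and were compared. Their median log2 fold was 0.18 against −0.06 for all loci, and 53 of 80 were above 0, against 42.3% of all loci. At least 2-fold higher were 12 (15.0%, against 2.79% of all loci) and 2-fold lower 2, and past 4-fold were 2 in each direction. The 80 had a median of 3.57 FPKM on control, and folds leaned higher at low level. By own length, all loci with a mean of 1 to 5 FPKM had quartiles of −0.19 and 0.29. Those of 100 FPKM or more had −0.30 and −0.03. The limit of 1 FPKM lets a locus in through the library where it is high, so the 80 are not all members, and 6 of the 12 were under 1 FPKM on control. Of the 64 with at least 1 FPKM in both libraries, a limit chosen after the values were seen, 6 were 2-fold higher and 0 lower, where 0.869% and 0.692% of all loci passed. With a limit of 5 FPKM in one library 6 of 36 were higher, against 1.91% of all loci, and with 5 FPKM added to every value 4 of 80, against 0.985%. By own length, at a mean of 1 to 5 FPKM with at least 1 FPKM in both libraries, 1 of 31 was higher. Other loci at that level had 1.16%. At a mean of 5 to 20 FPKM 3 of 15 were higher, against 1.12% of other loci, and at 20 to 100 FPKM 1 of 14, against 0.37%. The 49 that are in neither the ERGO-1 nor the intergenic list had a median of 0.07, with 4 higher and 2 lower.

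The pseudogene W04B5.1 (WBGene00021018, III:2428194-2446142), an ERGO-1 target, had the largest upward fold of these loci. It was at 4.24 FPKM on control, 2.91 on drh-1 RNAi and 27.9 on nrde-3 RNAi in wild type, 5.52-fold on the FPKM plus 1 scale. In the triple mutant it was at 19.5 FPKM on control and 65.2 on nrde-3 RNAi. Its small RNA was at 4051 and 9346 normalised reads in the wild-type libraries and at 14.3 and 35.8 in eri-6. In total RNA it was at 42.5 FPKM in wild type and 93.6 in eri-6, and the authors' deposited bounds of these values, 29.6 to 55.4 and 68.6 to 118.7, do not overlap. W04B5.1 was thus higher on nrde-3 RNAi in both genotypes and higher in eri-6 than in wild type. The span that the table gives it is longer than its own annotation of 1227 bases.

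C44B11.6 (WBGene00016635, III:3152736-3153472) is the most abundant of the 12. This ERGO-1 target was at 47.96 FPKM on control, 43.3 on drh-1 RNAi and 131 on nrde-3 RNAi, a log2 fold of 1.43, and at 58.0 and 176 FPKM on control and nrde-3 RNAi in the triple mutant. Its small RNA was at 12090 and 12309 normalised reads in the wild-type libraries and at 186 and 303 in eri-6. Its own annotation is 189 bases long, so it is left out when own length is used. The intergenic RNA linc-45 (III:3151809-3152607) ends 128 bp before it and was at 0.928 FPKM on control and 3.63 on nrde-3 RNAi. Both were thus higher, and linc-45 was at 5.67 FPKM in the triple mutant control and 10.9 on nrde-3 RNAi.

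Long intergenic noncoding RNAs made up 5 of the 12. The linc-12 transcript (WBGene00219687, II:2675788-2694311) was at 4.16 FPKM on control, 11.2 on drh-1 RNAi and 18.0 on nrde-3 RNAi, a log2 fold of 1.88. The triple mutant libraries were far above any wild-type one, at 104.3 FPKM on control and 199 on nrde-3 RNAi. The linc-8 transcript (II:2501838-2503802) was at 9.06 FPKM on control, 5.34 on drh-1 RNAi and 22.6 on nrde-3 RNAi, and at 13.8 and 30.4 in the triple mutant. The linc-17 transcript (II:3596226-3596812) was at 0.482 FPKM on control and 2.65 on nrde-3 RNAi, whereas both triple mutant libraries were above 30, at 32.5 and 35.4 FPKM. The linc-41 transcript went with linc-45 in size, at 0.974 FPKM on control and 3.03 on nrde-3 RNAi.

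The other 5 were K02E2.11, C40A11.10 and 3 neighbours on chromosome V. K02E2.11 (V:20383362-20384404) was at 21.4 FPKM on control, 13.5 on drh-1 RNAi and 54.3 on nrde-3 RNAi, and at 27.1 and 93.5 in the triple mutant. Next to it lies K02E2.6, an ERGO-1 target just under the 2-fold limit, with 18.2 FPKM on control and 36.7 on nrde-3 RNAi. C40A11.10, an ERGO-1 target on chromosome II, was just above that limit, at 1.95 and 5.02 FPKM. Y43F8B.8, Y43F8B.17 and Y43F8B.29 lie within a few kilobases of each other. All 3 were listed at 0 in the control and were at 3.40, 1.26 and 2.58 FPKM on nrde-3 RNAi, and Y43F8B.17 was higher on drh-1 RNAi, at 4.78. Several ERGO-1 targets are near-identical copies of one another, and no source used here says how reads were shared among copies, so values of single copies are uncertain.

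**Figure D2:**
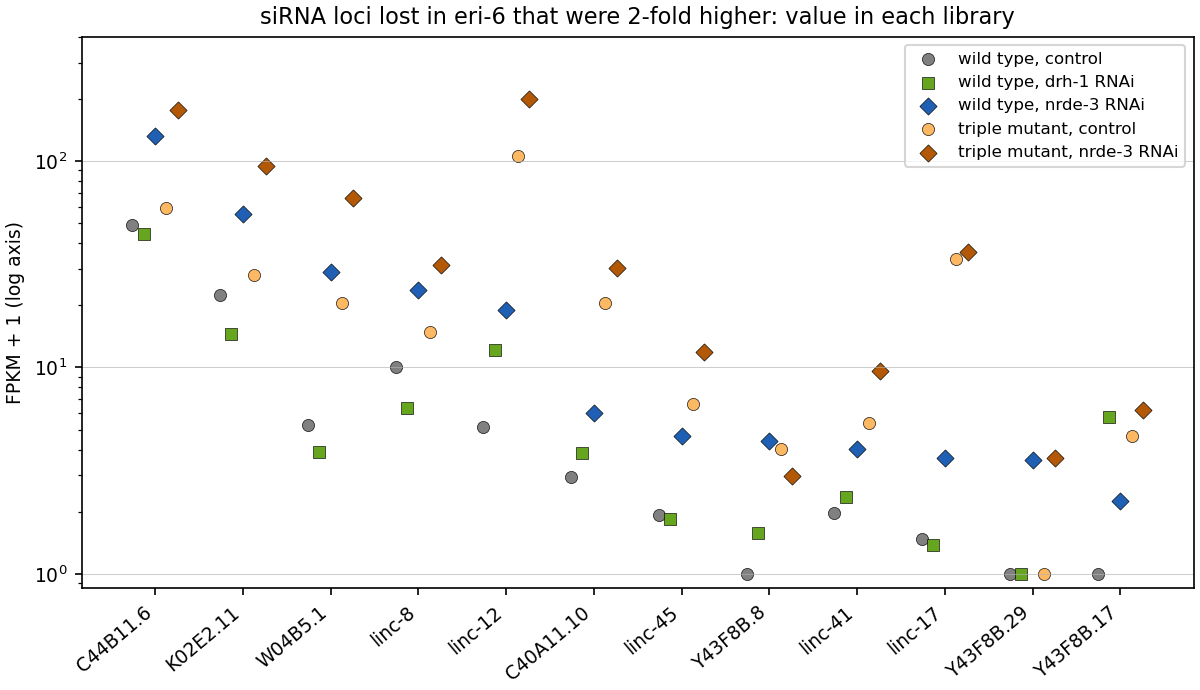
FPKM plus 1 (log axis) in each of 5 libraries for the 12 loci that lose small RNA in eri-6 and were at least 2-fold higher on nrde-3 RNAi in wild type. Blue diamonds stand above grey circles by that choice, and brown diamonds (triple mutant, nrde-3 RNAi) stand above yellow circles (triple mutant, control) for 11 of the 12 loci. The median log2 fold of all 80 loci was also above 0 in the triple mutant, at 0.70.

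Among the 12, 11 were above 0 in the triple mutant pair and 5 were 2-fold higher there, W04B5.1, C44B11.6, K02E2.11, linc-8 and Y43F8B.29. In that pair the 80 loci had a median of 0.70, with 28.75% at least 2-fold higher. All loci compared had a median of 0.12, with 11.3% higher. The share above 0 in that pair was not counted for the 80 or for all loci. Total RNA was higher in eri-6 than in wild type for 10 of the 12, and the authors' deposited bounds did not overlap for 4, W04B5.1, linc-17, linc-41 and linc-45. The others of the list were close to this, with 49 of 66 (74.2%) higher in eri-6 and 19 (28.8%) with bounds apart, and over all loci compared these shares were 56.7% and 9.4%. Of the 80 loci compared, 4 of 14 on chromosome II, 3 of 12 on III, 1 of 13 on IV and 4 of 23 on V were among the 12, with none of 11 on X and none of 7 on I.

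The 12 higher loci were more often among those with more small RNA. Of these 12, 6 were under 1 FPKM on control and entered through the nrde-3 RNAi library. The split was not made for loci with at least 1 FPKM in both libraries. Of the 41 loci with a wild-type mean of 1000 or more normalised reads, 9 (21.95%, against 2.79% of all loci) were 2-fold higher and 0 lower, with a median of 0.28. Of the 39 with less, 3 were higher and 2 lower, with a median of 0.08. Across the 80 loci Spearman's rho between the fold and the wild-type small RNA was 0.32, a description over loci that share both libraries. Loci whose small RNA was abundant but held in eri-6 were counted too, without matching for mRNA level. Of 6052 such loci 4943 passed the limit of 1 FPKM, against 80 of the 132 that lose small RNA. By own length, all loci of 100 FPKM or more had a median of −0.16, with 0.166% 2-fold higher. The part of mRNA level in the contrast was not tested. The 4943 loci, with a wild-type mean of at least 100 normalised reads and an eri-6 mean within 2-fold of it, had a median of −0.13. Of them 33 (0.668%) were 2-fold higher and 34 lower. The 3068 loci with a mean under 10 normalised reads had a median of 0.05, with 226 (7.37%) higher and 140 lower, and they include most of the short RNAs. By own length, that last class had 120 of 2837 (4.23%) higher and 78 lower.

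The 2 lower loci were not lower in the triple mutant. Y17D7B.10 was at 812 FPKM on control, 618 on drh-1 RNAi and listed at 0 on nrde-3 RNAi in wild type, while in the triple mutant it was listed at 0 on control and at 896 on nrde-3 RNAi. Y51A2A.16 was at 6.09 FPKM on control, 0.730 on nrde-3 RNAi and listed at 0 on drh-1 RNAi, with 1.71 and 3.81 in the triple mutant.

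Where eri-6 is mutant on both kinds of food, in the triple mutant, the same 80 loci had a median of 0.70, with 23 at least 2-fold higher and 7 lower on nrde-3 RNAi. The background there was wider, with a median of 0.12 over all loci compared, 11.3% of them 2-fold higher and 5% lower. Of the 12 higher in wild type, 5 (41.7%) were higher in the triple mutant, which is 21.7% of the 23. Over all loci compared, 42 of the 329 that were 2-fold higher in wild type (12.8%) were higher in the triple mutant, 3.16% of its 1329, and 69 were 2-fold lower there. Spearman's rho between the folds of the 2 genotypes was 0.23 over the 80 loci and 0.05 over 7835 loci with an own length of 200 or more and a mean of at least 5 FPKM. In the wild-type library on drh-1 RNAi, with the same control, the 80 loci had a median of −0.39, with 2 higher and 12 lower. All loci compared had a median of −0.19 there, with 2.12% higher and 9.54% lower.

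**Figure D3:**
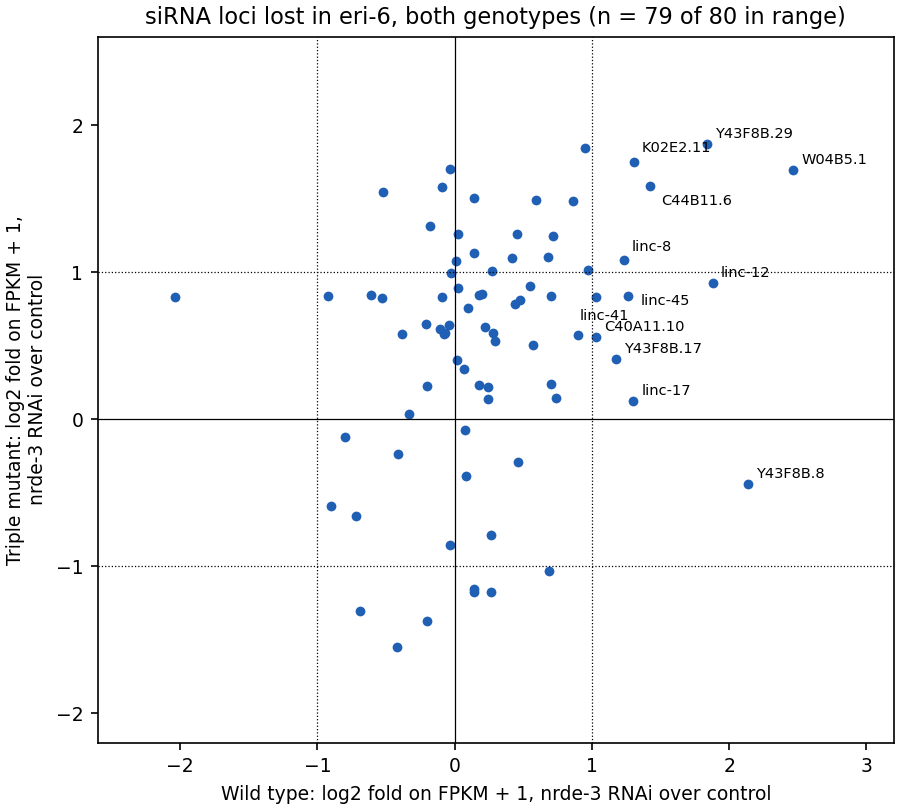
Log2 fold of nrde-3 RNAi over control in wild type (horizontal) and in the triple mutant (vertical) for 79 of the 80 loci that lose small RNA in eri-6, with dotted lines at 2-fold. The 12 loci named at the right are those 2-fold higher in wild type, and all but Y43F8B.8 lie above 0 in the triple mutant. The median of the 80 in the triple mutant was 0.70, against 0.12 for all loci compared.

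ERGO-1 class targets overlap these loci, since 17 of the 19 compared also lose small RNA in eri-6, so the list is not a separate observation. Of 21 listed, 19 were compared, with a median of 0.28, 3 at least 2-fold higher (15.8%) and 0 lower, and 13 above 0 (68.4%). All loci compared had a median of −0.06, with 2.79% higher, 2.02% lower and 42.3% above 0. The 3 were W04B5.1, C44B11.6 and C40A11.10, all among the 12. Below 2-fold lay K02E2.6 at 0.97, the neighbours F55C9.3 and F55C9.5 at 0.70 and 0.47, Y37E11B.2 at 0.70, the F-box gene fbxb-37 at 0.66 and H09G03.1 at 0.55. F55C9.3 was at 0.295 FPKM on control and 1.11 on nrde-3 RNAi in wild type, and at 12.7 and 23.4 in the triple mutant. The lowest values were ZK380.5 at −0.80, C36A4.11 at −0.53 and F39F10.4 at −0.49, and E01G4.5, with abundant small RNA, was at −0.20. The triple mutant pair gave the list a median of 0.81, with 6 higher (31.6%) and 1 lower (5.26%). There all loci compared had a median of 0.12, with 11.3% higher and 5% lower.

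Long intergenic RNAs were mostly low. Of 135 listed, 47 were compared, and 12 (25.5%, against 2.79% of all loci) were 2-fold higher and 2 lower, with a median of 0.24. Of the 12, 10 were under 1 FPKM on control and entered through the nrde-3 RNAi library. With at least 1 FPKM in both libraries 2 of 31 were higher and 1 lower, against 0.869% and 0.692% of all loci. Their median was then 0.052. With a limit of 5 FPKM in one library 2 of 20 were higher, against 1.91% of all loci, and 2 lower. With 5 FPKM added 1 of 47 was higher, against 0.985%. With no limit on FPKM the median was 0.038. The 14 that lose small RNA in eri-6 had 5 higher and 0 lower with a median of 0.62, and the other 33 had 7 higher and 2 lower with a median of 0.22. The 7 others are linc-170, linc-104, linc-52, linc-80, linc-47, linc-58 and linc-18, with 1.04 to 2.67 FPKM on nrde-3 RNAi, and 6 of them were listed at 0 in the control. The 2 lower ones were linc-32, at 13.7 FPKM on control and 37.6 in the triple mutant control and listed at 0 on nrde-3 RNAi in both genotypes, and linc-20, at 19.2 and 8.38 FPKM. The abundant linc-1 and linc-5 lay close to equal, with linc-1 at 53.5 FPKM on control and 54.9 on nrde-3 RNAi, and linc-5 at 31.2 and 36.95.

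All 11 genes of the nuclear RNAi pathway itself were within 2-fold, as were 95.2% of all loci compared. Their log2 folds ran from −0.41 for T01C3.9 to 0.43 for nrde-2, with a median of −0.03. The germline nuclear Argonaute gene hrde-1 was at 125 FPKM on control and 122 on nrde-3 RNAi. The nuclear RNAi factor gene nrde-2 was at 39.8 and 53.9 FPKM, and nrde-1 at 29.2 and 30.7. The histone methyltransferase genes met-2 and set-25 had log2 folds of 0.11 and 0.36. The 10 genes of the ERI complex and its Argonautes, the 15 mutator and RNA-dependent RNA polymerase genes, the 13 other Argonautes and the 11 genes of dsRNA entry and sensing also had 0 members past 2-fold in either direction. Their medians were −0.08, −0.20, 0.02 and 0.05.

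Outside the RNAi lists the counts past 2-fold are read against the 2.79% of all loci that were higher and the 2.02% that were lower. Among 67 collagens, 68 ribosomal protein genes, 43 neuron genes, 41 cytochrome P450 genes, 64 MATH and BTB genes, 16 unfolded protein response genes and 13 cytosolic heat shock genes, 0 were 2-fold higher and 0 lower. Of 29 histone genes 2 were higher and 2 lower (6.9% each), and of 30 sperm genes 2 were higher (6.67%) and 1 lower (3.33%). Of 201 F-box genes 1 was higher, fbxb-12 at 0.434 FPKM on control and 2.39 on nrde-3 RNAi. Of 9 pals genes 1 was lower, B0284.1 at 5.65 and 0.724 FPKM. None of the 7 host genes of the intracellular pathogen response passed 2-fold. The conjugating enzymes gst-33 and ugt-1 were lower, at 6.52 and 0.938 FPKM for gst-33 and 10.6 and 2.98 for ugt-1, out of 84 such genes.

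Antimicrobial genes had 6 of 86 members 2-fold higher and 2 lower, with a median of −0.08 that changes sign under other scalings of the libraries. The 3 past 4-fold, fipr-15, fipr-19 and fipr-20, were listed at 0 in the control and have own lengths under 200 bases. By own length of 200 or more, 3 of 82 were higher (3.66%) and 1 lower (1.22%), against 1.84% and 1.3% of all loci. The lysozyme gene ilys-2 was lower, at 3.11 FPKM on control and listed at 0 on nrde-3 RNAi. The abundant saposin-like gene spp-5 was at 6984 FPKM on control and 7073 on nrde-3 RNAi.

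Genes of metal handling gave 2 higher members of 16 in the stress list. The metallothionein gene mtl-1 was at 3.75 FPKM on control, 10.8 on drh-1 RNAi and 15.8 on nrde-3 RNAi, and at 7.03 and 18.4 in the triple mutant. The ferritin gene ftn-1 was at 0.944 FPKM on control, 2.48 on drh-1 RNAi and 4.80 on nrde-3 RNAi. It was thus under 1 FPKM on control and entered through the nrde-3 RNAi library. The 2 genes were also higher on drh-1 RNAi, and both RNAi libraries share the control library. Both are expressed in the intestine, whose list of 13 had them as its 2 higher members and the protease gene cpr-1 as its lower one, at 74.5 and 26.1 FPKM.

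Oocyte and early embryo genes lay a little lower, 21 of 22 below 0, with a median of −0.36 and a range of −0.62 to 0.00, and 0 past 2-fold. Of all loci compared 57.7% were below 0, and 18 of the 22 are in the class of 100 FPKM or more, of which, by own length, 79.8% were below 0 with a median of −0.16. The RNA-binding protein gene puf-11 was at 308 FPKM on control and 200 on nrde-3 RNAi, and the chondroitin proteoglycan gene cpg-2 at 913 and 602 FPKM. The yolk receptor gene rme-2 was at 182.3 and 140 FPKM. On nrde-3 RNAi in the triple mutant 11 of the 22 were 2-fold lower (50.0%, against 5% of all loci compared). In wild type on drh-1 RNAi the median was 0.19, against −0.19 for all loci. Zygotic embryo genes had a median of −0.28 over 9 genes, sperm genes −0.23 over 30 and germline genes −0.13 over 18. Vitellogenin genes, which encode yolk proteins, were above 0 in all 6, with a median of 0.21, and vit-2 was at 2526 FPKM on control and 2954 on nrde-3 RNAi. Their median was 1.05 in the triple mutant pair, with 4 at least 2-fold higher, against 0.12 and 11.3% for all loci compared. By own length, all loci of 100 FPKM or more had quartiles of 0.12 and 1.02 in that pair. In wild type on drh-1 RNAi the vitellogenin median was 1.47, with all 6 at least 2-fold higher, against −0.19 and 2.12% for all loci. Molting genes, of which 21 of 57 were compared, had a median of 0.21 with 19 of 21 above 0, where 42.3% of all loci compared were above 0. Their median was −0.37 in the triple mutant pair, with 1 at least 2-fold higher and 4 lower, and −0.005 in wild type on drh-1 RNAi. The list medians of this paragraph for the wild-type nrde-3 pair keep their sign under each scaling of the libraries tried. In whole animals fewer cells of a type and less RNA per cell cannot be told apart.

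**Figure D4:**
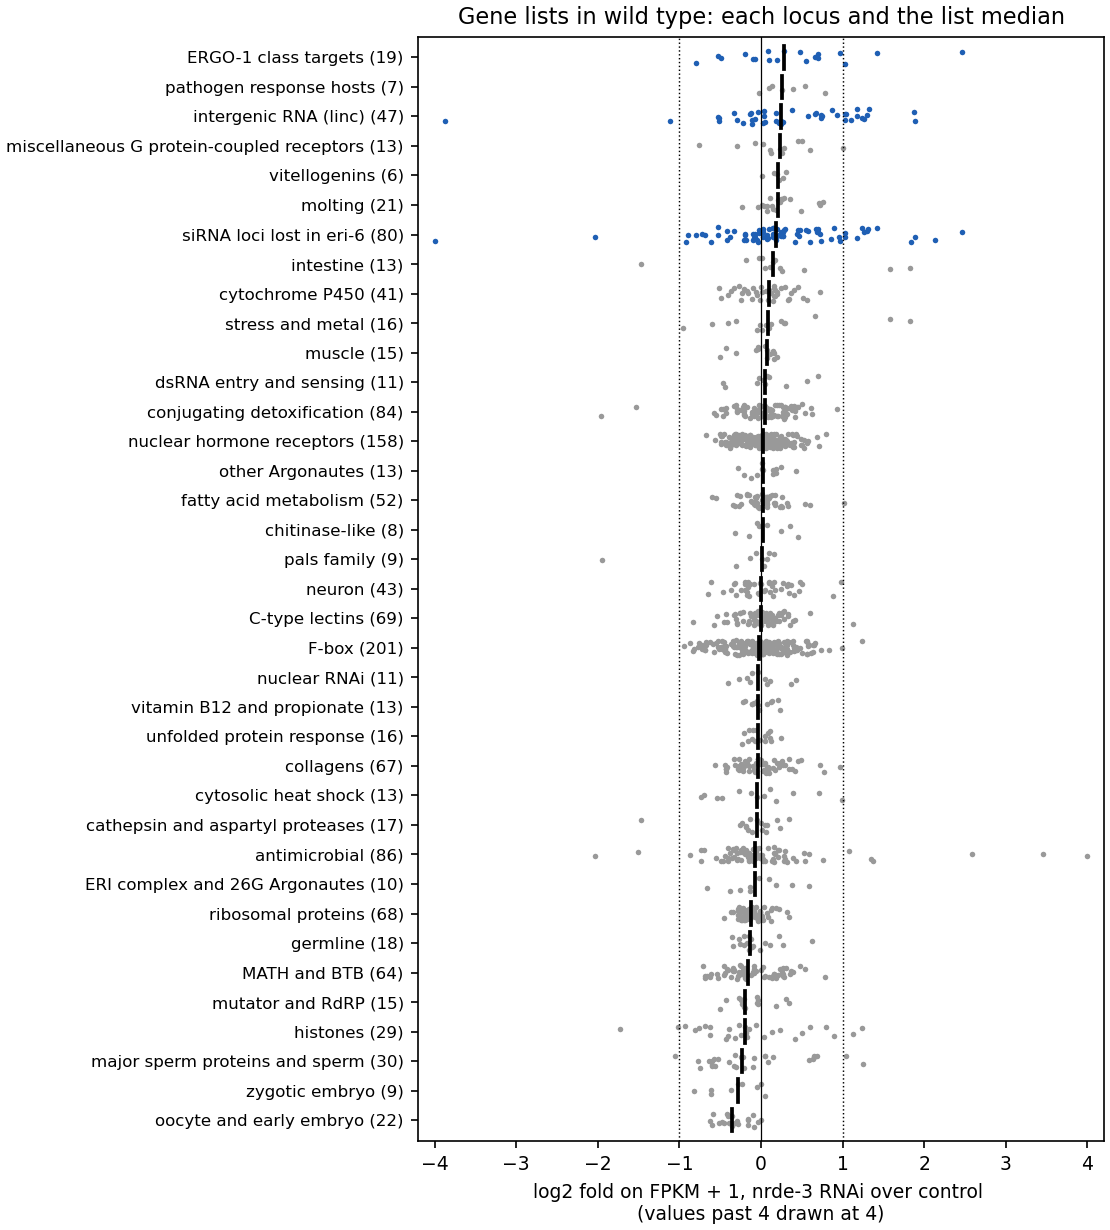
Log2 fold of nrde-3 RNAi over control in wild type for each locus (points) of the 37 gene lists with at least 6 loci compared, with the list median (black bar), the number of loci compared in brackets and dotted lines at 2-fold. Blue marks the ERGO-1 targets, intergenic RNAs and loci that lose small RNA in eri-6, lists that share loci, so the same locus can be drawn again. Past 2-fold on the right lie 12 of 80 loci that lose small RNA, 6 of them under 1 FPKM on control. So do 12 of 47 intergenic RNAs, 10 of them under 1 FPKM on control, where 2.79% of all loci passed. The oocyte list has the lowest median at −0.36.

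The next 7 small coding genes were chosen after their values were seen, for being low in the wild-type control library, which both RNAi libraries share, so their values are a description only. The neighbours F56D6.9, F56D6.8 and dct-8 on chromosome IV (IV:3892998-3895502) were at 8.93, 2.89 and 2.102 FPKM on control, 24.1, 10.2 and 7.02 on nrde-3 RNAi, and 37.2, 12.02 and 13.4 on drh-1 RNAi. The neighbours R12E2.15 and R12E2.14 on chromosome I were at 13.9 and 3.33 FPKM on control, 33.8 and 13.4 on nrde-3 RNAi, and 31.9 and 6.99 on drh-1 RNAi. Similarly F41F3.3 was at 2.596, 9.78 and 23.3 FPKM and C02E7.6 at 6.44, 14.7 and 27.5 on control, nrde-3 and drh-1 RNAi. All 7 genes have a wild-type mean of under 2 normalised reads of small RNA. For 6 of the 7, all but F56D6.9, the triple mutant was more than 2-fold lower on nrde-3 RNAi than on control, as were 5% of all loci compared, with dct-8 at 8.62 and 0.703 FPKM.

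Loci past 4-fold in the same direction in both genotypes numbered 10 higher and 10 lower, of 127 and 108 in wild type and of 0.543% and 0.875% of loci in the triple mutant. More went opposite ways, with 17 of those higher in wild type past 4-fold lower in the triple mutant, and 22 of those lower in wild type past 4-fold higher there. By own length of 200 or more 2 and 6 went opposite ways, and those past 4-fold the same way were 3 higher, T06A10.2, C54E10.7 and C38C5.1, and 2 lower, linc-32 and C07A12.2, where the triple mutant had 0.254% and 0.56% of loci past 4-fold. T06A10.2, on chromosome IV, was listed at 0 on control and at 26.98 FPKM on nrde-3 RNAi in wild type, and at 11.5 and 67.3 in the triple mutant. C54E10.7 was listed at 0 on control in both genotypes and at 13.6 and 6.29 FPKM on nrde-3 RNAi. C07A12.2 was at 7.42 FPKM on control and listed at 0 on nrde-3 RNAi in wild type, and at 28.7 and 3.71 in the triple mutant.

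Ribosomal RNA and tissue markers describe the libraries. The ribosomal RNA locus rrn-3.1 was at 3287 FPKM on control and 693 on nrde-3 RNAi in wild type, and at 1031 and 2971 in the triple mutant. Defining markers of intestine (5 of 5), yolk (3 of 3), neuron (4 of 4), germline (4 of 4), oocyte (5 of 5) and embryo (5 of 6) were at 1 FPKM or more. The counts were 2 of 3 for hypodermis, 2 of 2 for body muscle, 0 of 2 for pharynx, 1 of 4 for sperm and 1 of 3 for the L4 molt. The 5 oocyte markers summed to 1198 FPKM on control and 888 on nrde-3 RNAi, and the 5 intestine markers to 567 and 578. The intestine, germline and body muscle markers are also members of the gene lists of those tissues. So are col-19 and dpy-7 of the collagens, msp-142 of the sperm genes, noah-1 of the molting genes and puf-11 of the oocyte genes. The yolk markers are vitellogenin genes, and other markers can be list members too. Marker values are therefore not a separate observation from the lists. The part of these differences in the values of other lists was not tested.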

How the data were processed

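Poly(A) RNA of whole animals was sequenced with a directional kit, per the labels' protocols. The submitters' processing notes name build WBcel235 and, without roles or versions, the tools TopHat2, Cuffdiff, Cufflinks, featureCounts, BWA, Trim Galore and DESeq2. FPKM per library were scaled by the authors within each table of 4 libraries, per the file headers. Total RNA came as FPKM with lower and upper bounds over 2 libraries per genotype, and small RNA as normalised reads per gene, a signal scaled by the authors, per the file headers. The depth is unknown, and no interval was computed.

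The table held 37425 entries, and 344 with a repeated gene ID were left out. Folds used FPKM plus 1, loci of 200 bp or more and at least 1 FPKM in one library, with limits at 4-fold and 2-fold, in Python 3.11.15 with pandas 2.3.3. The fold step was tested on simulated data. No test was run, since there was 1 library per side. Own lengths came from the RefSeq gene table of WBcel235, matched by symbol or locus tag. Named were nrde-3, the 20 highest and 20 lowest loci, up to 10 loci per direction past 4-fold in both genotypes, all ERGO-1 and nuclear RNAi genes, and up to 4 members past 4-fold and the 2 most abundant of every other list. Coding genes in loci with a nested RNA, list members between 2-fold and 4-fold, all loci that lose small RNA in eri-6, the small coding genes and the classes by small RNA level were chosen after their values were seen, as were the use of own length and the limit of 1 FPKM in both libraries. The members and lists were chosen with earlier results of these data known.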

Additional observations from a re-analysis of the deposited data

Results flagged for a closer look

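Among the loci named with an own length of 200 or more, 5 were past 4-fold in opposite directions in wild type and in the triple mutant. The difference between the genotypes was not tested, since there is 1 library per condition. As wild type minus triple mutant, the log2 folds differed by −19.48 for Y17D7B.10, with −9.67 and 9.81. They differed by 10.97 for sea-2, a zinc finger gene with a short noncoding gene inside its locus, with 5.05 and −5.92. They differed by −6.85 for the noncoding RNA B0285.12, with −3.84 and 3.01, and by −5.30 for ZC155.8, with −2.51 and 2.79. They differed by 6.29 for T16G1.18, with 3.78 and −2.51. Y17D7B.10 and T16G1.18 have libraries listed at 0, so the size of their difference depends on the 1 FPKM added. In FPKM, sea-2 was at 1.26 and 74.1 on control and nrde-3 RNAi in wild type and at 207 and 2.44 in the triple mutant, with 46.3 in wild type on drh-1 RNAi.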

How the results depend on the processing

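No paired analysis was possible because each side has 1 library, and for the same reason no replicate could be left out. Loci 4-fold higher and lower numbered 248 and 175 with 0.1 FPKM added, 39 and 45 with 5 FPKM added, 329 and 238 at 2-fold, 35 and 36 with an own length of 200 or more, and 23 and 29 when loci holding a short noncoding gene were also left out, and 15 and 16 with at least 1 FPKM in both libraries, the last 3 settings being chosen after seeing the data. The median of all loci moved from −0.06 to 0.038 with the median ratio of abundant loci set to 1 and to 0.042 with the control as scaled in the drh-1 table, a shift of about 0.1.

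For loci that lose small RNA in eri-6, the median under these scalings was 0.28 and 0.28. The 12 of 80 that were 2-fold higher (2.79% of all loci) became 4 of 80 with 5 FPKM added (0.985% of all loci), 6 of 36 at a limit of 5 FPKM (1.91%), 4 of 44 for loci of 1000 bp or more (1.98%) and 6 of 64 with 1 FPKM in both libraries (0.869%). The 2 lower became 6 with 0.1 FPKM added, 1 with 5 FPKM added, 0 at 1000 bp and 0 with 1 FPKM in both. ERGO-1 targets 2-fold higher numbered 5 with 0.1 FPKM added and 1 at 1000 bp, and lower 1 with 0.1 FPKM added. Their median was 0.53 with 0.1 FPKM, 0.12 with 5 FPKM, 0.66 at a limit of 5 FPKM and 0.15 without loci holding a short noncoding gene. Intergenic RNAs 2-fold higher numbered 1 of 47 with 5 FPKM added, 2 of 20 at a limit of 5 FPKM, 5 of 21 at 1000 bp and 2 of 31 with 1 FPKM in both, and lower 1 with 5 FPKM added and 1 with 1 FPKM in both. Their median was 0.038 with no limit, 0.11 at 5 FPKM, 0.033 at 1000 bp and 0.052 with 1 FPKM in both. The medians of these 3 lists stayed above 0 in all 12 settings. The cause of these moves was not tested beyond the settings' own construction. Of 38 other lists, 15 had a median that changed sign in at least one setting. Low FPKM limit the counts, since 201 of the loci compared were listed at 0 in the control and 136 on nrde-3 RNAi.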
